A study of Mus musculus with 6 samples.

Results

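The genes described here are 10 regulators and markers of megakaryocytes and red cells, namely Gata1, Gfi1b, Zfpm1, Klf1, Tal1, Epor, Itga2b, Itgb3, Pf4 and Car2. They were chosen by symbol, for their known roles and with earlier results of these data known, out of 34199 gene symbols counted, and all 10 passed the filter on low counts that left 12460 genes to test. RNA was sequenced from iGMPs, granulocyte-macrophage progenitors from the marrow of C57Bl/6 mice that carry a GFP reporter of lysozyme (Lys-GFP), immortalised by HOXA9 fused to an estrogen receptor domain so that the cells self-renew while estradiol is present. In CAF-1 OFF, 500 µM IPTG induced a hairpin RNA against Chaf1b, whose product is part of the histone chaperone CAF-1, with estradiol kept at 150 ng/ml. The control cells received IPTG and estradiol, and in HOXA9 OFF the estradiol was washed out, which lets the cells differentiate along the neutrophil path. All 3 groups carry the HOXA9 fusion and the reporter, were grown with stem cell factor from hamster-cell medium and were harvested at 24 h, with 2 libraries each. The labels do not say which clones were used or whether HOXA9 OFF cells were given IPTG, so clone, IPTG and estradiol withdrawal cannot be told apart in HOXA9 OFF against control. Nor can clone and Chaf1b loss be told apart in CAF-1 OFF against control, where both groups received IPTG. The study used independent sub-clones for other RNA-seq of this line, before induction and later than 24 h, but the sources do not say whether the 2 libraries of a group here came from separate cultures or sub-clones, so p-values measure only the spread between these libraries, which may be technical.

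Megakaryocytes, which shed platelets, and red cell precursors arise from a common progenitor and are governed by one set of transcription factors. GATA1 binds DNA together with its cofactor FOG1, the product of Zfpm1, and in a complex with TAL1 and LMO2. GFI1B is a repressor needed in both lineages, KLF1 drives the red cell programme, and the targets include the erythropoietin receptor and the platelet integrin chains. Several of the factors are not confined to these lineages: GATA1 also acts in eosinophils and mast cells, and TAL1 is found in stem cells and mast cells. The cells profiled were granulocyte-macrophage progenitors, which normally lie outside the megakaryocyte and red cell branch, so the question was which of these genes were on at the start and how each moved when CAF-1 or HOXA9 was lost.

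The libraries held 16773560 to 25170898 counts, and 3 counts corresponded to 0.118 to 0.182 CPM (counts scaled to a common library size). The hairpin target Chaf1b was 97.5 ± 10.7 CPM (SD, n = 2) in control and 14.9 ± 4.01 CPM in CAF-1 OFF, a log2 fold change of -2.71 ± 0.20 (SE, edgeR FDR = 0.0198). In HOXA9 OFF it was 63.0 ± 2.30 CPM, or -0.63 ± 0.18 on the log2 scale (FDR = 0.0396). Genes were called when they differed by 1.5-fold or more with a false discovery rate (FDR) under 0.05 over all genes tested. The labelled cell type was checked against its markers, and all 10 listed GMP genes passed the filter, with summed levels of 11726 to 14723 CPM (control), 15601 to 17400 CPM (CAF-1 OFF) and 12077 to 15073 CPM (HOXA9 OFF). In HOXA9 OFF 2 of them were called higher and 4 lower, led by Flt3 at -6.05 ± 0.25 on the log2 scale (FDR = 0.000102), and in CAF-1 OFF 0 were called.

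The sequences just upstream of Gfi1b and Pf4 are shown because these genes had the largest fold changes of the set in CAF-1 OFF. Each is the 250 bases before the RefSeq start of GRCm38.p6, printed 5′ to 3′ on the gene's strand and located by an exact match in NCBIM37, which is mm9. The Gfi1b window lies at chr2:28477503-28477752 on the minus strand and the Pf4 window at chr5:91201211-91201460 on the plus strand.
Gfi1b: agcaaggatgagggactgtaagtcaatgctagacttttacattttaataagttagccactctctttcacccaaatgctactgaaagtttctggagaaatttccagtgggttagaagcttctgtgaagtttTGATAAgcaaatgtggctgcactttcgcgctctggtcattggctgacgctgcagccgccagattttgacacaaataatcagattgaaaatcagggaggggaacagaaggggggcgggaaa
Pf4: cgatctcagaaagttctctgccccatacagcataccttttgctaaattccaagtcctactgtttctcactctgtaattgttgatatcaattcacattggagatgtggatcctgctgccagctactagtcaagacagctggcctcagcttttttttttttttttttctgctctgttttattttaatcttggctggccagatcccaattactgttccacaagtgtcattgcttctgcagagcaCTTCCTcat
Capitals mark matches to GATA words (AGATAA or AGATAG or TGATAA or TGATAG) or to ETS words (AGGAAG or CGGAAG), which do not overlap each other here, searched on both strands. Gfi1b held 1 GATA word, TGATAA, starting 120 bases before the start, and 0 ETS words. Pf4 held 0 GATA words and 1 ETS word on the opposite strand, starting 9 bases before the start. Of the 10 members, 8 were in the promoter table, with 9 windows, because Tal1 had more than 1. Of these windows, 4 held a GATA word (Gfi1b, Klf1, Epor and 1 of Tal1) and 4 held an ETS word (Pf4, Zfpm1, Itga2b and Gata1), with no window holding both. Among all 32851 windows in the table, 26.5% held a GATA word and 39.2% an ETS word. A match describes letters only.

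In control iGMPs, the 10 genes spanned more than 2 orders of magnitude when read counts were scaled to exon length (RPKM, which is CPM divided by exon length in kilobases). Car2, a carbonic anhydrase that red cells and several other blood cells use to handle carbon dioxide, was highest at 38.4 RPKM, with 34.6 and 42.2 in the 2 libraries. Tal1 followed at 15.1 RPKM, then Zfpm1 at 13.4 and Itgb3 at 12.4, and the libraries of the last pair overlapped. Pf4, a chemokine of platelet granules, stood at 4.67 RPKM and Itga2b, the integrin chain CD41, at 3.05. Gata1 (1.47 RPKM), Epor (0.798) and Klf1 (0.703) formed a low group in which neighbours overlapped. Gfi1b was lowest, at 0.245 RPKM, below both libraries of Klf1. The order thus put FOG1 and TAL1 messages well above that of GATA1, their DNA-binding partner.

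**Figure D1:**
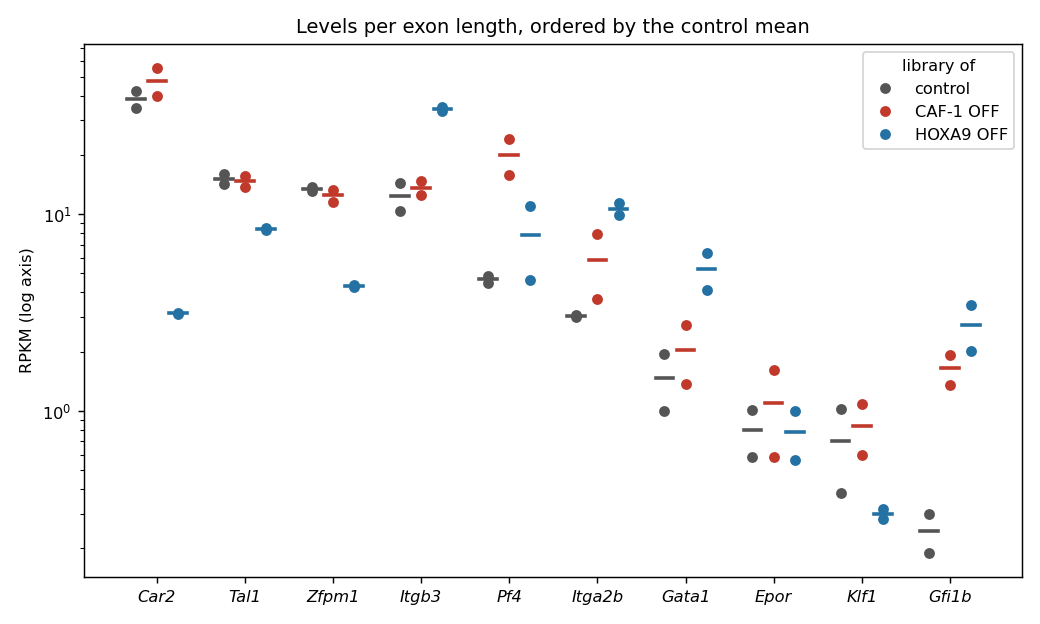
Level of each of the 10 genes in RPKM (log axis) for each library (points) with the mean of 2 libraries (bars), ordered by the control mean. Car2 fell from first place in control (38.4) to 3.14 in HOXA9 OFF, while Gfi1b had 0.245 in control, 1.64 with CAF-1 OFF and 2.74 with HOXA9 OFF.

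In CAF-1 OFF the order changed mainly through Pf4, which at 20.0 RPKM took second place behind Car2 (47.6). Tal1 (14.7 RPKM), Itgb3 (13.6) and Zfpm1 (12.5) kept levels near those of control, and neighbours among these 3 overlapped. Itga2b stood at 5.83 RPKM, and Gata1 (2.05), Gfi1b (1.64), Epor (1.10) and Klf1 (0.839) overlapped with their neighbours. In HOXA9 OFF, by contrast, both integrin chains led, with Itgb3 at 34.3 RPKM and Itga2b at 10.6. Tal1 (8.40 RPKM), Pf4 (7.79), Gata1 (5.24) and Zfpm1 (4.30) overlapped as neighbours, and Car2 (3.14) overlapped with Gfi1b (2.74). Epor (0.783 RPKM) and Klf1 (0.300) were last, each clear of the gene above it.

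CAF-1 OFF was compared with control to ask which of these genes differed at 24 h when the Chaf1b hairpin was on. No member was called with edgeR, with 3 members at an unadjusted p under 0.05 (Gfi1b, Itga2b and Pf4). In the whole table, 0.0241% of genes were called higher and 0.00803% lower, and 1330 of 12460 genes had an unadjusted p under 0.05. With the DESeq2 Wald test, 2 members were called, Gfi1b (FDR = 0.00103) and Pf4 (FDR = 0.00161). Without the filter on low counts edgeR called 3, which added Itga2b (FDR = 0.00304). Both CAF-1 OFF libraries lay above both control libraries for 3 members, and below for 0, beside 20.1% and 20.0% of all genes. Over the members, 8 of 10 log2 fold changes were positive, with a median of 0.38 beside -0.00 over all genes tested. Both values rested on the first CAF-1 OFF library: without it 5 of 10 were positive with a median of -0.06, and without the second 10 of 10 were positive with a median of 0.78. Without the second control library the median was 0.70.

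**Figure D2:**
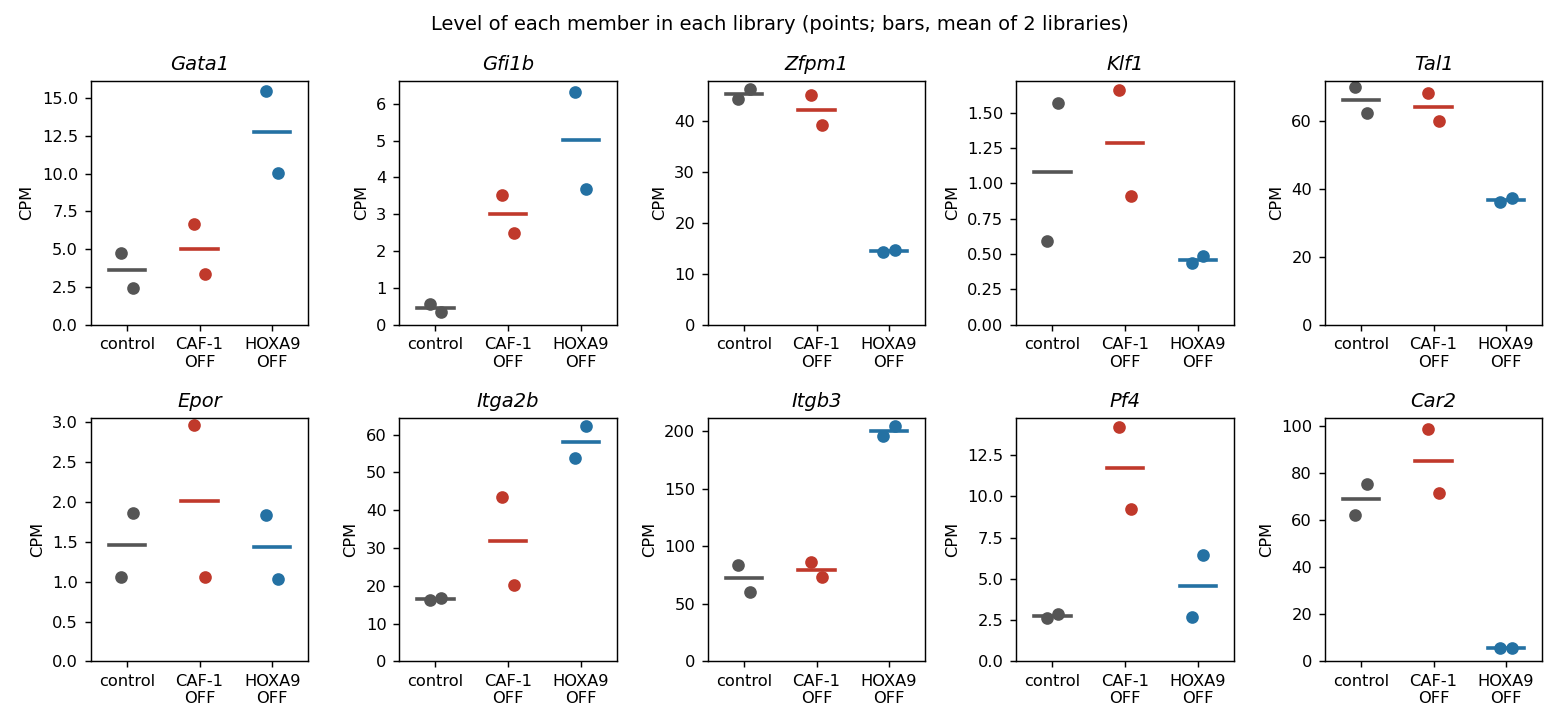
CPM of each gene in each library (points), with the mean of the 2 libraries of a group (bars); each axis starts at 0. Pf4 was 9.22 and 14.2 CPM in CAF-1 OFF, above 2.63 and 2.84 for control, while Car2 was 5.64 and 5.58 in HOXA9 OFF against 61.9 and 75.4 in control.

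Gfi1b showed the largest difference of the 10. It lies on chromosome 2 from 28464970 to 28477502 on the minus strand of mm9. Its level was 0.550 and 0.348 CPM in control, from 14 and 6 counts, and 3.53 and 2.48 CPM in CAF-1 OFF, from 68 and 49 counts. Both libraries with the hairpin on were thus well above both control libraries. The log2 fold change was 2.69 ± 0.46 (6.47-fold), with a 95% confidence interval of 1.61 to 3.78 and an FDR of 0.153. When each library was left out in turn, the value ranged from 2.42 to 3.09.

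Pf4 (chromosome 5, 91201461 to 91202407, plus strand) was the next largest. It had 2.63 and 2.84 CPM in control and 14.2 and 9.22 CPM in CAF-1 OFF, and the groups did not overlap. The log2 fold change was 2.09 ± 0.44 (4.27-fold; 95% confidence interval 1.05 to 3.14, FDR = 0.199). The value stayed between 1.75 and 2.39 with each library left out. Pf4 sits in a cluster of chemokine genes, so its nearest tested neighbours were read beside it. Cxcl3, a neutrophil-attracting chemokine 12722 bases to the right, had 4 and 1 counts in control and 97 and 108 in CAF-1 OFF, a log2 fold change of 5.44 ± 0.60 (FDR = 0.0627). Ppbp, a platelet chemokine 2375 bases to the left, had 3 and 1 counts in control and 4 and 12 in CAF-1 OFF, and its difference did not pass the test (FDR = 0.739). The platelet gene Pf4 and its chemokine neighbour Cxcl3 were therefore both higher in each CAF-1 OFF library than in either control library, short of the FDR threshold.

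Itga2b (chromosome 11, 102314611 to 102331436, minus strand) pairs with Itgb3 to form the fibrinogen receptor of platelets. Itga2b was 16.4 and 16.8 CPM in control and 43.4 and 20.2 CPM in CAF-1 OFF. Both CAF-1 OFF libraries were above control, one of them only slightly. The log2 fold change of 0.94 ± 0.33 (95% confidence interval 0.16 to 1.71; FDR = 0.381) rested on the first CAF-1 OFF library. It was 0.28 without that library and 1.40 without the second. Its partner Itgb3 (chromosome 11, 104469370 to 104531790, plus strand) had 83.9 and 60.7 CPM in control and 86.2 and 73.2 CPM in CAF-1 OFF, so the groups overlapped. The log2 fold change of Itgb3 was 0.14 ± 0.17, with a 95% confidence interval of -0.26 to 0.54.

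The remaining 6 members overlapped between CAF-1 OFF and control. Tal1 had a log2 fold change of -0.04 ± 0.12 (95% confidence interval -0.33 to 0.24) and Zfpm1 of -0.10 ± 0.12 (-0.39 to 0.19). For these well-counted factors the intervals left room only for changes under 1.5-fold. Car2 was 98.7 and 71.5 CPM in CAF-1 OFF beside 61.9 and 75.4 CPM for control, a log2 fold change of 0.31 ± 0.18 (FDR = 0.594). Gata1 was 6.65 and 3.34 CPM against 4.75 and 2.44, a log2 fold change of 0.46 ± 0.45 with an interval of -0.62 to 1.54, so a change in either direction could not be shown. Klf1 and Epor were counted 15 to 57 times per library in these 2 groups, with log2 fold changes of 0.29 ± 0.58 and 0.48 ± 0.60.

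The 2 CAF-1 OFF libraries differed for the whole set. The first library was above the second for 10 of 10 members, with a median log2 difference of 0.55, beside 49.9% of all genes tested. Some other lists leaned the same way. Of 12 tested mast cell, basophil and eosinophil markers, 10 were higher in the first library, with a larger median of 0.74, and so were 8 of 10 GMP markers (median 0.14). The listed red cell effector genes did not lean, with 8 of 18 (median -0.09), nor did the platelet effector genes, with 8 of 16 (median -0.01). In control and in HOXA9 OFF the first library was above the second for 4 of 10 members each, and for 12 and 10 of the 12 mast cell, basophil and eosinophil markers. For the 10 GMP markers the counts there were 8 and 9. Chaf1b was also higher in the first CAF-1 OFF library, at 17.8 against 12.1 CPM, and the part of the remaining Chaf1b in these values was not tested. This pattern was noticed after the values were seen.

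HOXA9 OFF was compared with control to ask how the same genes moved on the path of normal myeloid differentiation. Of the 10 members, 4 were called higher (Gata1, Gfi1b, Itga2b and Itgb3) and 3 lower (Zfpm1, Tal1 and Car2), while Klf1, Epor and Pf4 were not called. Of all genes tested, 13.0% were called higher and 8.97% lower. With library size alone as the scaling, the 1622 higher and 1118 lower became 1434 and 1409, with the same members called. The HOXA9 OFF libraries lay above both control libraries for 4 members and below for 4, beside 35.1% and 35.9% of all genes. The median log2 fold change of the members was 0.36, against -0.00 over all genes, but it was 0.15 without the first control library, 0.61 without the second and 0.17 without the second HOXA9 OFF library. In bulk RNA, fewer cells of a type and less RNA per cell cannot be told apart, here and below.

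Among the transcription factor genes, Gata1 and Gfi1b rose while Zfpm1 and Tal1 fell. Gata1 (chromosome X, 7536386 to 7555197, minus strand) had 4.75 and 2.44 CPM in control and 15.5 and 10.1 CPM in HOXA9 OFF. The groups were well apart, and the log2 fold change was 1.81 ± 0.45 (FDR = 0.0252). The call was lost without the second control library (1.43, FDR = 0.116) or without the first HOXA9 OFF library (1.46, FDR = 0.120). Gfi1b rose to 6.32 and 3.70 CPM, from 131 and 61 counts, a log2 fold change of 3.43 ± 0.46 (10.8-fold; FDR = 0.00297).

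Zfpm1 (chromosome 8, 124806039 to 124861146, plus strand) fell from 44.3 and 46.3 CPM in control to 14.4 and 14.7 CPM in HOXA9 OFF. The libraries of each group were close together, and the log2 fold change was -1.64 ± 0.13 (FDR = 0.000579). Tal1 (chromosome 4, 114729031 to 114744360, plus strand) fell from 70.2 and 62.4 CPM to 36.2 and 37.3 CPM. Its log2 fold change was -0.85 ± 0.12 (FDR = 0.00369). Klf1 (chromosome 8, 87425827 to 87429194, plus strand) had 15 and 27 counts in control and 9 and 8 in HOXA9 OFF, with both HOXA9 OFF libraries the lower in CPM. Its log2 fold change of -1.19 ± 0.64 was not called (FDR = 0.205).

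Both chains of the platelet integrin rose together in HOXA9 OFF. Itga2b reached 53.8 and 62.2 CPM, a log2 fold change of 1.80 ± 0.33 (FDR = 0.00847), and Itgb3 reached 196 and 205 CPM, a log2 fold change of 1.47 ± 0.17 (FDR = 0.00195). Neither group of libraries overlapped with control. Itgav, the other chain that pairs with Itgb3, had a log2 fold change of 0.37 ± 0.12 and was not called (FDR = 0.0635). Pf4 had 56 and 106 counts in HOXA9 OFF, or 4.56 ± 2.63 CPM, with one library inside the control range and one above it. Its log2 fold change was 0.73 ± 0.44 (FDR = 0.255), and -0.01 without the second HOXA9 OFF library.

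Car2 (chromosome 3, 14886426 to 14900769, plus strand) and Gfi1b had the largest fold changes of the members in this comparison, in opposite directions. Car2 dropped from 61.9 and 75.4 CPM in control to 5.64 and 5.58 CPM, a log2 fold change of -3.61 ± 0.21, or 12.2-fold lower (FDR = 0.00028). Car3, its neighbour 14075 bases away and the nearest tested gene, fell too, from 26.5 ± 2.53 to 5.73 ± 0.731 CPM (n = 2; log2 fold change -2.21 ± 0.19; FDR = 0.000772). Of 16 listed carbonic anhydrases, 6 were tested, and those 2 were the ones called (median -0.91). In CAF-1 OFF 0 were called (median -0.04). Epor (chromosome 9, 21763343 to 21768020, minus strand), which relays the erythropoietin signal, had 1.06 and 1.86 CPM in control and 1.83 and 1.03 CPM in HOXA9 OFF. The ranges coincided, with a log2 fold change of 0.00 ± 0.56 and a 95% confidence interval of -1.33 to 1.33.

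**Figure D3:**
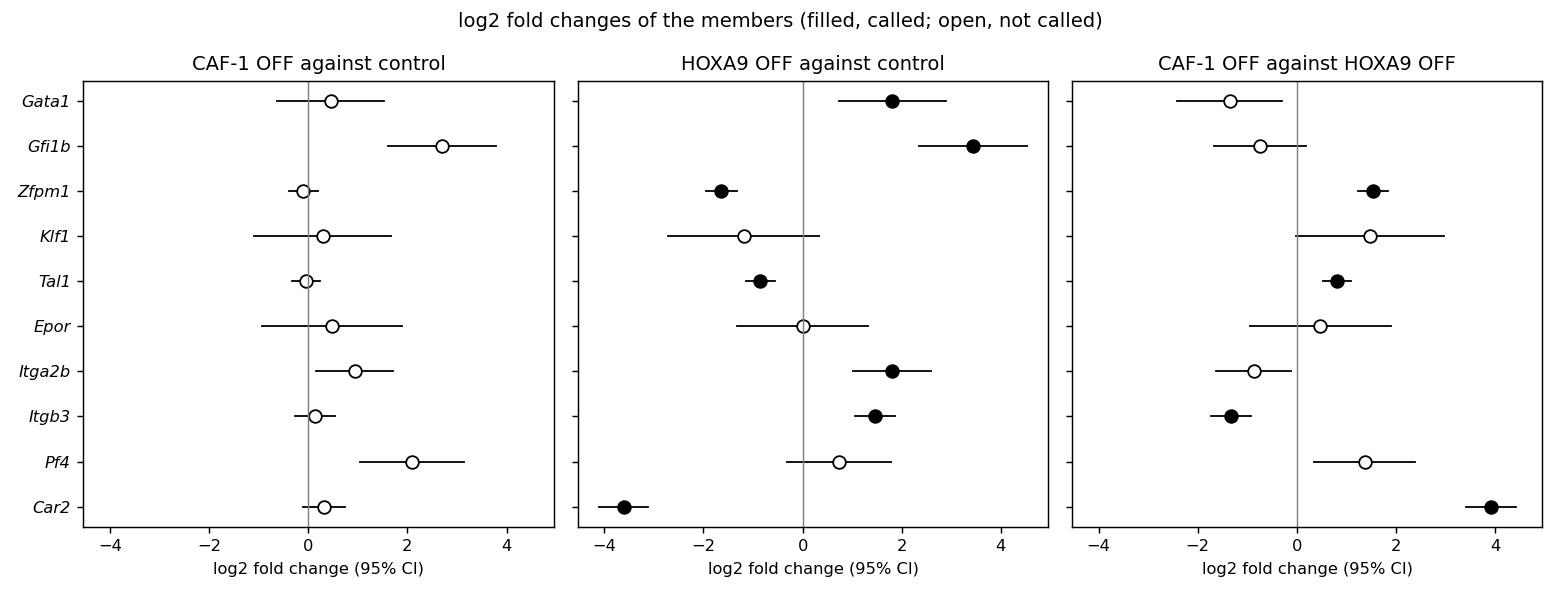
log2 fold change (x axis) of each gene in the 3 comparisons, with 95% confidence intervals as lines; filled points were called and open points were not. No point is filled for CAF-1 OFF against control, 7 are for HOXA9 OFF against control and 4 for CAF-1 OFF against HOXA9 OFF.

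CAF-1 OFF and HOXA9 OFF were also compared directly, because a call in one and not in the other is no test of a difference. The comparison called 3 members higher in CAF-1 OFF (Zfpm1, Tal1 and Car2) and 1 lower (Itgb3), beside 9.56% and 12.6% of all genes. The CAF-1 OFF libraries lay above both HOXA9 OFF libraries for 5 members and below for 4, beside 33.0% and 33.7% of all genes. With library size alone as the scaling, the balance over all genes turned, from 1191 higher and 1564 lower to 1475 and 1334, and Pf4 was called as well (FDR = 0.0444). The median log2 fold change was 0.64 over the members and 0.00 over all genes. Without the first CAF-1 OFF library the members' median was 0.14, and without the second it was 0.99.

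Car2 was 15.1-fold above its HOXA9 OFF level in CAF-1 OFF (log2 fold change 3.92 ± 0.21; FDR = 0.000236). Zfpm1 was higher by 1.54 ± 0.13 (FDR = 0.000779) and Tal1 by 0.81 ± 0.12 (FDR = 0.00468) on the log2 scale. Itgb3 was lower, with a log2 fold change of -1.33 ± 0.17 (FDR = 0.0028). Zfpm1, Tal1 and Itgb3 thus had levels near control in CAF-1 OFF and different ones in HOXA9 OFF. For Car2 the 95% confidence interval of CAF-1 OFF against control, -0.11 to 0.73, left room for a rise above 1.5-fold.

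Gfi1b and Itga2b were the members above control in every library of both conditions. Both comparisons used the same control libraries, so they are not independent, and the share of all genes with this order was not computed. The direct difference of Gfi1b was -0.74 ± 0.39 on the log2 scale, with a 95% confidence interval of -1.67 to 0.19 (FDR = 0.198), so neither equal levels nor a lower level in CAF-1 OFF could be shown. Gata1 was lower in both CAF-1 OFF libraries than in either HOXA9 OFF library, at -1.36 ± 0.45 (FDR = 0.0595), and Itga2b likewise at -0.87 ± 0.32 (FDR = 0.082). Pf4 had the reverse order, with 14.2 and 9.22 CPM in CAF-1 OFF against 4.56 ± 2.63 CPM, and the libraries did not overlap. Its log2 fold change of 1.37 ± 0.43 (95% confidence interval 0.35 to 2.38) lay at the edge of the threshold (FDR = 0.0509). With a library left out, the Pf4 difference ran from 0.88 without the first HOXA9 OFF library (FDR = 0.166) to 2.11 without the second (FDR = 0.0192), and was 1.02 without the first CAF-1 OFF library (FDR = 0.199). Gata1 was called at -1.93 (FDR = 0.0463) without the first CAF-1 OFF library, but stood at -0.92 (FDR = 0.191) without the second. Itga2b likewise was called at -1.52 (FDR = 0.005) without the first and stood at -0.40 (FDR = 0.0975) without the second. With DESeq2 all 3 of these genes were called. Klf1, counted 32 and 18 times in CAF-1 OFF and 9 and 8 times in HOXA9 OFF, differed by 1.48 ± 0.63 and was not called (FDR = 0.123).

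The listed partners and relatives of the member factors were mostly well expressed. Of 22 genes, 21 were tested, and in HOXA9 OFF against control 6 were called higher and 2 lower (beside 13.0% and 8.97% of all genes, the background for every list in that comparison), with a median log2 fold change of 0.06, while 0 were called in CAF-1 OFF (median 0.07). Gata2, the GATA factor of stem cells and mast cells, had 81.9 ± 5.40 CPM in control, 90.1 ± 20.1 in CAF-1 OFF, then 85.3 ± 1.14 in HOXA9 OFF (SD, n = 2). Its log2 fold changes against control were 0.14 ± 0.16 and 0.06 ± 0.16. Lmo2 and Lyl1, which join TAL1 complexes or resemble TAL1, had log2 fold changes of 0.14 ± 0.17 and 0.02 ± 0.13 with CAF-1 OFF. With HOXA9 OFF the values were -0.05 ± 0.17 and -0.04 ± 0.13, and none was called.

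Gfi1, the paralog of Gfi1b that acts in granulocytes, moved the other way from Gfi1b in HOXA9 OFF. It fell there from 399 ± 7.39 to 229 ± 27.7 CPM, by 0.80 ± 0.11 on the log2 scale (FDR = 0.00353). In CAF-1 OFF, Gfi1 was 478 ± 12.2 CPM, a log2 fold change of 0.26 ± 0.11 that was not called (FDR = 0.473). Among the largest calls in HOXA9 OFF were Sfpi1, the older symbol of Spi1 and the master factor PU.1 of myeloid cells (1.55 ± 0.17, FDR = 0.00162), and Runx1 (1.48 ± 0.13, FDR = 0.000946). Sox6, which silences embryonic globin, rose from 4 and 1 counts to 15 and 9 (log2 fold change 2.41 ± 0.64; FDR = 0.0297). In CAF-1 OFF, Sox6 had 21 and 18 counts (3.06 ± 0.61, FDR = 0.185). Cbfa2t3, a corepressor in TAL1 complexes, rose by 0.83 ± 0.17 in HOXA9 OFF (FDR = 0.0138). Nfe2, a platelet-forming factor, was not called against control (0.45 ± 0.19 in HOXA9 OFF; FDR = 0.115).

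The erythropoietin and thrombopoietin pathway was read through 15 genes, of which 13 were tested. The ligands Epo and Thpo had 0 counts in all libraries. In HOXA9 OFF against control 5 genes of the pathway were called higher and 1 lower, with a median of 0.53, and in CAF-1 OFF 0 were called, with a median of 0.37. The largest calls were Pim1 (3.02 ± 0.14, FDR = 0.000133), Socs3 (2.21 ± 0.41, FDR = 0.00862), Socs2 (-1.70 ± 0.45, FDR = 0.03) and the receptor kinase Jak2 (1.27 ± 0.12, FDR = 0.000962). These are kinases and feedback inhibitors that many cytokine receptors share.

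Effector genes of mature red cells were in part scarce. Of 38 listed genes, 2 were not in the table, 5 had 0 counts in all libraries (Hba-a2, Hbb-bh1, Slc4a1, Kel and Icam4) and 13 were below the filter, among them Alas2, Hba-a1, Hbb-b1 and Car1. The globin genes have near-identical copies, and reads that aligned to more than 1 place were left out of the counts, so their low values are uncertain. The tally of such alignments was 89.6 to 107 per 100 counted reads, and it may hold a read more than once. Others were well above the filter, such as the blood group gene Rhd, at 12.1 CPM in control and 23.8 CPM with CAF-1 OFF. The 18 tested genes include those of heme synthesis and iron uptake, which most dividing cells use. In CAF-1 OFF 0 were called against control, with a median log2 fold change of 0.10. In HOXA9 OFF 0 were called higher and 3 lower, with a median of -0.02. These were Spnb1 (the older symbol of the spectrin gene Sptb; -3.22 ± 0.95; FDR = 0.0425), Aqp1 (-2.14 ± 0.50, FDR = 0.0203) and Rhd (-0.69 ± 0.19, FDR = 0.0337). Spnb1 had 80 and 314 counts in the 2 control libraries, so its starting level was uneven. In the direct comparison, 6 of the 18 were called higher in CAF-1 OFF than with HOXA9 OFF and 1 lower (beside 9.56% and 12.6% of all genes), with a median of 0.10. Among the 6 were Rhd (1.67 ± 0.19, FDR = 0.00192) and Aqp1 (1.78 ± 0.51, FDR = 0.0383). Eng, also listed here, differed by 0.87 ± 0.35 in CAF-1 OFF and was not called (FDR = 0.447).

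Platelet effector genes gave a mixed picture. Of 31 listed genes, 16 were tested, and 5 had 0 counts in all libraries, among them the glycoprotein genes Gp1bb and Gp6. In HOXA9 OFF against control 7 were called higher and 1 lower, with a median of 0.72. In CAF-1 OFF 0 were called, with a median of 0.65, or 0.55 with 3 genes of at most 3 control counts set to their lower bound. Thbs1, a thrombospondin made by platelets and monocytes alike, rose from 1583 ± 390 to 6971 ± 563 CPM in HOXA9 OFF (log2 fold change 2.14 ± 0.22; FDR = 0.00149). F2rl3, a thrombin receptor, fell by 2.25 ± 0.30 (FDR = 0.00302).
P2ry12, the ADP receptor of platelets, had 0 counts in both control libraries, 0 and 6 in CAF-1 OFF and 13 and 22 in HOXA9 OFF. The last were at least 6.72-fold higher than 3 counts per library (FDR = 0.032). It passed the filter on low counts only through the HOXA9 OFF libraries, which favours this call. Ppbp, beside Pf4, had 6 and 122 counts in HOXA9 OFF, at least 26.3-fold higher than 3 counts per control library in the mean (FDR = 0.0459), a value carried by the second library.

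**Figure D4:**
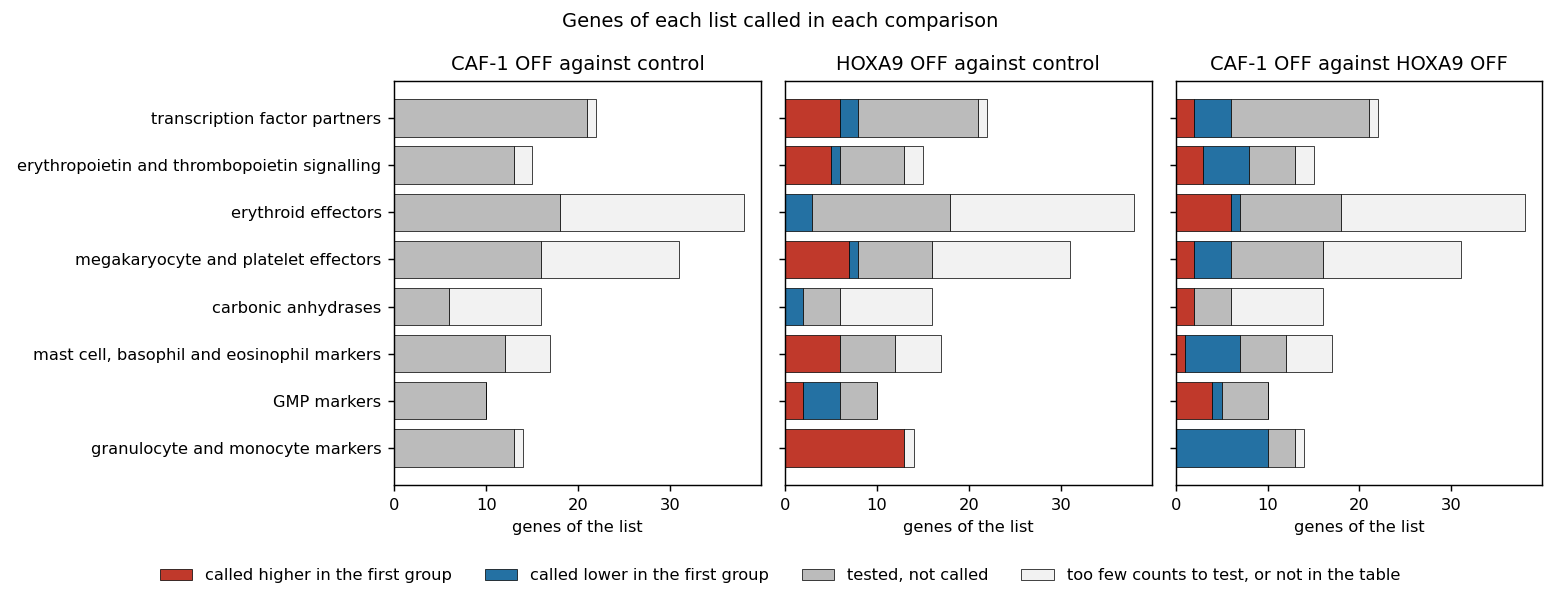
Number of genes of each list (x axis) called higher (red) or lower (blue) in the first group named, tested and not called (grey), or too few to test or not in the table (white), for the 3 comparisons. In HOXA9 OFF against control, 13 of 14 granulocyte and monocyte markers were called higher, while 0 of 38 erythroid effectors were.

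Many markers of other blood cells rose in HOXA9 OFF, where 4 members were called higher and 3 lower. Granulocyte and monocyte markers summed to 354 to 515 CPM (control), 974 to 1022 CPM (CAF-1 OFF) and 1980 to 2807 CPM in HOXA9 OFF. In HOXA9 OFF 13 of 13 tested were called higher (median log2 fold change 5.0), and in CAF-1 OFF 0 were called (median 1.22). Mast cell, basophil and eosinophil markers, cells in which Gata1 is also active, summed to 804 to 1225 CPM (control), 1281 to 1836 CPM (CAF-1 OFF) and 4317 to 5773 CPM in HOXA9 OFF. Prg2 alone made up most of each sum, at 758 ± 248, 1062 ± 117 and 4243 ± 966 CPM in the same order. The mast cell and basophil genes went both ways from control to HOXA9 OFF. Mcpt8 went from 33.7 to 23.5 CPM and Prss34 from 2.85 to 2.34, while Cpa3 went from 143 to 240 and Hdc from 48.7 to 222.

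Of the 12 tested genes in that list, 6 were called higher in HOXA9 OFF and 0 lower (median 1.47), and 0 were called in CAF-1 OFF (median 0.42). The largest were the eosinophil peroxidase gene Epx (5.72 ± 0.47, FDR = 0.000663), the eosinophil ribonuclease gene Ear2 (4.40 ± 0.77, FDR = 0.00744), Il5ra (3.46 ± 0.36, FDR = 0.00138) and Csf2rb2 (2.62 ± 0.16, FDR = 0.00028). The mast cell proteases Mcpt4 and Tpsab1 had 0 counts in all libraries. In CAF-1 OFF against HOXA9 OFF directly, this list had 1 gene called higher and 6 lower (median -1.63), and the granulocyte and monocyte list had 0 higher and 10 lower (median -3.74). The factor partners had 2 higher and 4 lower (median 0.08), the cytokine pathway 3 and 5 (median -0.35), the platelet effectors 2 and 4 (median -0.20), the carbonic anhydrases 2 and 0 (median -0.05) and the GMP markers 4 and 1 (median 0.27). The background for every list in this comparison was 9.56% of all genes called higher and 12.6% lower, and some of these counts lay near it.

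The part of these other cell types in the levels of Gata1, Gfi1b and the integrin chains was not tested.

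The members' patterns over the 6 libraries fell along the same lines, given here as a description because libraries share their groups. Zfpm1, Tal1 and Car2 had Pearson correlations of log2 CPM between 0.977 and 0.992 with one another, and Itgb3 had -0.968 with Zfpm1. Gata1 went with Itgb3 (0.932) and Itga2b (0.885). Among 9614 genes with a mean of at least 5 CPM, those most like Zfpm1 were Hsp90aa1, Siah1a and Slc19a1 (r of 0.999 each), and those most like Tal1 were Eif2a (0.999), Sap30bp (0.997) and Dkc1 (0.996). Exosc1 (0.999), 6030408B16Rik (0.999) and Tut1 (0.998) were closest to Car2. For Gata1 they were Clec2d (0.998), Lpcat2 (0.993) and Calr (0.993), and for Gfi1b they were Lrrc1 (0.992), Ccnd3 (0.991) and Fcgr2b (0.991). Itga2b was most like Hsd3b7 (0.999), Serinc3 (0.987) and Rnf41 (0.986), and Itgb3 was most like Atp13a2 (0.998), Ndst2 (0.997) and Fes (0.996).

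Neighbouring genes were read beside the members. Within 50 kb of the 10 genes the annotation placed 52 others in the count table, of which 26 were tested. In CAF-1 OFF against control 0 of the 26 were called, and in HOXA9 OFF 4 were called higher and 3 lower, shares near those of all genes (13.0% and 8.97%). Glod5, beside Gata1, rose with it in HOXA9 OFF (log2 fold change 2.18; FDR = 0.0279), from 8 and 9 counts to 53 and 19. Grn, 16488 bases from Itga2b, rose from 168 ± 24.8 to 512 ± 68.6 CPM (n = 2; log2 fold change 1.61; FDR = 0.00151). The tested genes nearest to Gata1 and Itga2b were others, Hdac6 and Gpatch8. They had log2 fold changes of 0.17 (FDR = 0.407) and 0.22 (FDR = 0.364) and were not called. Myl4, beside Itgb3, fell while Itgb3 rose, from 15.0 ± 10.9 to 1.94 ± 0.691 CPM (n = 2; log2 fold change -2.95; FDR = 0.0155).
Cxcl3, at the side of Pf4, differed between the conditions, with 3 and 7 counts in HOXA9 OFF beside 97 and 108 in CAF-1 OFF (log2 fold change 4.23; FDR = 0.0029). Annotated genes that overlap members without sharing exons were Gm20388 around Zfpm1 and AL596258.1 within Itga2b, and neither passed the filter on low counts.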

How the data were processed

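Total RNA from iGMPs was sequenced in 6 libraries (3 groups of 2, grouped by sample title). The authors used STAR (alignment to mm9) and HTSeq (counting), and the deposited values were raw counts per gene symbol. The strand and overlap settings and the annotation are not given in the sources used here, so reads of overlapping or antisense genes, and of near-identical copies, may be misassigned. The 5 tally lines of each file, which hold the reads left uncounted, were left out of library sizes and tests.

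The tests used edgeR 4.0.16 with limma 3.58.1 under R 4.3.3: filterByExpr, TMM scaling (factors 0.954 to 1.03), and 1 quasi-likelihood fit to all 6 libraries, with Benjamini-Hochberg adjustment over 12460 genes. Calls needed a fold change of 1.5 and an FDR under 0.05, as in the study. SE and 95% intervals come from the quasi-likelihood F statistic, and SD are over 2 libraries. CPM used TMM-scaled library sizes, and RPKM divided CPM by the summed exon length in GENCODE for NCBIM37, in which 33223 of 34199 symbols were found. Coordinates are 1-based. Lower bounds against 3 counts cover counting error only. The fit was also run on simulated data, and the outcome is not reported here.

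Alternatives were other scalings, DESeq2 1.42.0, other filters and thresholds, a replicate block, the 4 libraries compared, and each library left out. The members and gene lists were chosen with earlier results of these data known. Named from the lists were up to 4 genes per list with the largest called changes against control, plus Gata2, Gfi1, Lmo2, Lyl1, Nfe2, Itgav and Eng (some listed genes are not reported here); likeness was ranked by Pearson correlation over 6 libraries, and neighbours lay within 50 kb. Correlations used log2 CPM with a prior count of 2.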

Additional observations from a re-analysis of the deposited data

How the results depend on the processing

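Of 427 member log2 fold changes recomputed under alternatives, 385 kept their direction and their side of the threshold, 18 gained a call, 5 lost one, and 19 changed sign. A fit that left out a library assumed that the lone library of its group varied like the other groups. In CAF-1 OFF against control, the 4 genes called became 192 with the DESeq2 Wald test, 378 with no filter on low counts, 2 with the replicate block, 9 with only the 4 libraries compared and 0 at 2-fold and FDR under 0.01, and 0 to 10 with a library left out. The members called, 0, became 2 with DESeq2 and 3 with no filter, and stayed at 0 under the other settings. In HOXA9 OFF against control, the 2740 genes became 987 at the stricter threshold and 1602 to 2840 with a library left out, with 5 to 7 members called. In CAF-1 OFF against HOXA9 OFF, the 2755 genes became 948 at the stricter threshold and 1711 to 2718 with a library left out, and the 4 members became 7 with DESeq2 and 7 with no filter, and 3 to 6 otherwise. The causes were not tested.

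The values that changed sign were not called. Epor in HOXA9 OFF against control, at 0.0011, was -0.085 with library size alone, -0.0080 with DESeq2, -0.0040 with no filter, -0.090 with the replicate block and -0.0019 with only the 4 libraries. With a library left out, it ranged from -0.49 to 0.44, Pf4 from -0.012 to 1.23, and Epor in CAF-1 OFF against HOXA9 OFF from -0.44 to 1.05. In CAF-1 OFF against control the ranges were -0.12 to 1.04 for Gata1, -0.28 to 1.13 for Klf1, -0.44 to 1.05 for Epor, -0.21 to 0.013 for Zfpm1, -0.14 to 0.062 for Tal1 and -0.065 to 0.40 for Itgb3.

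The sources do not say that replicate numbers pair the samples, and the numbers were not taken as pairs: the correlation of deviations between same-numbered libraries was -0.178 for CAF-1 OFF and control, 0.456 for HOXA9 OFF and control (a hint of pairing from the data, with 2 pairs), and 0.0329 for CAF-1 OFF and HOXA9 OFF. The block left 2680 and 2684 genes called in the other comparisons and added a call for Gata1 in CAF-1 OFF against HOXA9 OFF (-1.40, FDR = 0.00988). Crossed pairing of CAF-1 OFF and control, chosen after seeing the data, called 71 genes and 0 members. Library size alone moved the median of all genes by -0.08 in HOXA9 OFF against control. Depth limits Klf1 and Epor most, with 8 to 57 counts per library, and Gfi1b in control, with 14 and 6.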
